A study of Mus musculus with 16 samples.

Results

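Histone deacetylases (HDACs) remove acetyl groups from lysines of histones and other proteins. The group described here is Hdac1, Hdac2, Hdac3, Hdac4, Hdac5, Hdac6, Hdac7, Hdac9, Hdac10 and Hdac11, taken as all transcripts that carry 1 of these 10 gene names. Rows were found for 9 of the 10 genes, with 69 transcripts of 80137 and 9 gene names of 18287 in all. Hdac6 lies on chromosome X, and no transcript of that chromosome is among the values used here, so Hdac6 was not analysed here. Hdac8 is not among the listed names.

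RNA of the hippocampus was sequenced from 16 male wild type C57BL/6 mice aged 3 months, 4 mice in each of 4 groups and 1 library per mouse. Homecage (HC) mice stayed in their cages, were not handled and received no shock. Control (Ctrl) mice were placed in the shuttle box without shocks on the first day. On the second day they went through the test session of 30 escapable shocks of 0.4 mA. Ctrl vs. HC therefore holds handling, the shuttle box and the test together. Mice that became learned helpless (LH) or did not (NLH) were first given 180 inescapable shocks of 0.4 mA, were tested in the same way 24 h later, and were told apart by how often and how fast they escaped. Both hippocampi of a mouse were pooled, 3 h after the test. LH and NLH are therefore outcomes of the same procedure and not treatments of their own. The shock received in the test was not the same, since an escape ended a shock and a failure let it run in full. The paper reports more failures and longer latencies in LH mice than in NLH and Ctrl mice. This longer shock goes along with the LH label and was not tested apart from it. Levels are FPKM, the fragments of a transcript per kilobase of its length and scaled to the fragments of the library, and a gene sum adds the FPKM of all transcripts with that gene name.

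As background, class I enzymes (Hdac1, Hdac2 and Hdac3) are nuclear and act within the SIN3, NuRD, CoREST and NCoR corepressor complexes. In the hippocampus Hdac2 and Hdac3 are known for holding back memory formation. Class IIa enzymes (Hdac4, Hdac5, Hdac7 and Hdac9) have little deacetylase activity of their own, bind MEF2 transcription factors, and leave the nucleus when kinases such as CaMKs phosphorylate them and 14-3-3 proteins hold them. Class IIb (Hdac6 and Hdac10) works largely in the cytoplasm, where Hdac10 deacetylates polyamines, and Hdac11 is the only member of class IV.

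A pair of libraries stood apart before any comparison. LH replicates 3 and 4 held 36 and 38 of the 69 HDAC transcripts below 0.01 FPKM, against 16 to 26 in the other 14 mice. Over all transcripts the shares below 0.01 FPKM were 37.6% and 45.7% in these mice and 24.6% to 30.6% in the others. The number of fragments in a library, estimated from the steps between low FPKM values with fragments assumed to be 200 bases long, was 24.7 M and 20.2 M in them, 23.8 M and 28.1 M in the other LH mice and 27.05 M to 38.1 M in the remaining 12 mice (M, megafragments). This estimate has no error attached, and counting intervals cannot be given for FPKM. Values below 0.01 FPKM are written as 0 here, and a 0 may be a failed estimate of an isoform and need not be an absent RNA.

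**Figure D1:**
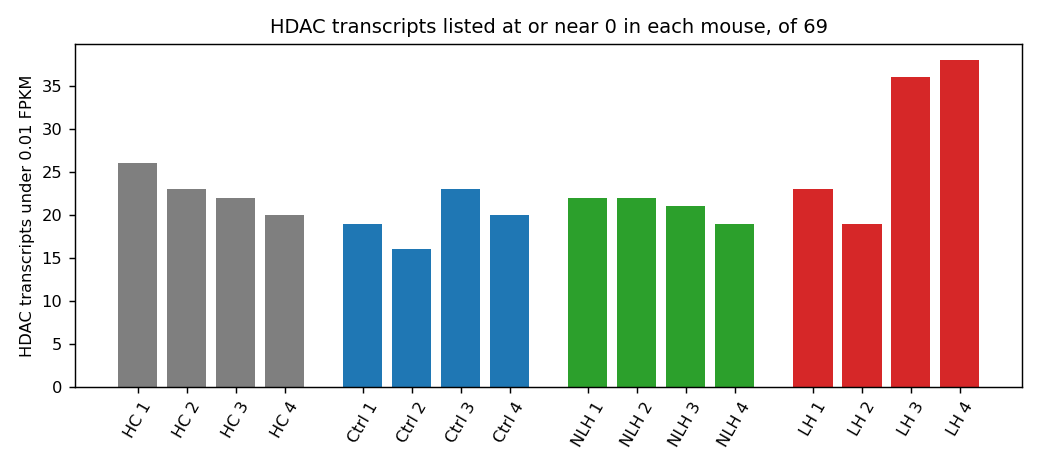
Number of HDAC transcripts, of 69, below 0.01 FPKM in each of the 16 mice (bars from 0, coloured by group). LH 3 and LH 4 reach 36 and 38, and the other 14 mice lie between 16 and 26.

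The tissue label was compared with marker genes. All 5 hippocampal neuron markers with rows had a mean of at least 1 FPKM, and their sum was 276 to 304 FPKM in HC mice, 300.1 to 352 in Ctrl mice, 264 to 322 in NLH mice and 224 to 348 in LH mice. The 6 striatal markers summed to 7.53 to 18.3 FPKM over all mice, with 3 of them at a mean of at least 1. Choroid plexus markers varied most within groups, from 1.59 to 81.1 FPKM in LH and from 2.39 to 34.9 in HC. Endothelial markers summed to 11 to 13.1 FPKM in Ctrl and 13.8 to 22 in LH, without overlap between these groups, and to 12.9 to 14.5 in HC and 13 to 17 in NLH. Sums of oligodendrocyte, astrocyte, microglial, inhibitory neuron and red blood cell markers overlapped between all groups, none of the markers was at 0 in every mouse, and no marker passed limma's adjusted threshold in any comparison. The part of these differences in the HDAC values was not tested, and in bulk tissue fewer cells of a type and less RNA per cell cannot be told apart.

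The transcripts on which the results turn differ at a few splice junctions, shown here because the short sequences are what set a retained intron or a truncated enzyme apart from the full message. All are read 5′ to 3′ from the GENCODE vM21 transcripts (GRCm38, the same assembly as mm10), all lie on the minus strand, and positions are 1-based. The Hdac10 transcript Hdac10-205 keeps 2 introns that the coding transcript Hdac10-201 removes, chr15:89127692-89127921 (230 bases) and chr15:89124254-89124531 (278 bases). Hdac10-206, a shorter non-coding transcript, starts an exon inside the second of these introns and holds its last 175 bases. Lower case marks exon sequence of Hdac10-201 and capitals mark intron sequence.
Hdac10-201, first junction: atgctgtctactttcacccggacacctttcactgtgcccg
Hdac10-205, start of the first intron: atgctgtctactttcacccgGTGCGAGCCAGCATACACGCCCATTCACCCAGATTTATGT
Hdac10-201, second junction: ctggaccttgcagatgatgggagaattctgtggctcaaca
Hdac10-205, start of the second intron: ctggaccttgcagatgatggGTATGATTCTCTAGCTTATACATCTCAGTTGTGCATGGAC
Hdac10-206, junction into the second intron: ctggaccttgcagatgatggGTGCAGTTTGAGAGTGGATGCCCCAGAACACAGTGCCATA

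In Hdac9 the most abundant transcript, Hdac9-201, reads on past the last exon it shares with the long form Hdac9-205 and ends its coding sequence 51 bases later, stop codon included, at chr12:34373827-34373877. Its coding sequence is 1764 bases long without the stop codon, against 3192 bases in Hdac9-205. The shorter protein is known as a form without the deacetylase domain. Capitals mark the bases that follow the shared exon.
Hdac9-201, end of the coding sequence: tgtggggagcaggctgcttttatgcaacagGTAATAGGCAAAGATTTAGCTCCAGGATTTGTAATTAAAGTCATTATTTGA
Hdac9-205, continuation: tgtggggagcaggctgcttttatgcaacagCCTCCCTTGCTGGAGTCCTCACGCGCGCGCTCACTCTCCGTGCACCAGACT

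In Hdac5 a pair of short retained-intron transcripts, Hdac5-210 and Hdac5-219, overlap within 1 exon of the full-length Hdac5-204, so reads there can be given to any of them. They share 84 exon bases at chr11:102199390-102199473. Hdac5-219 adds the whole intron at chr11:102199061-102199365 (305 bases), and Hdac5-210 starts in the intron part at chr11:102200534-102200816 (283 bases). Capitals mark intron bases.
Hdac5-210 and Hdac5-219, shared exon bases: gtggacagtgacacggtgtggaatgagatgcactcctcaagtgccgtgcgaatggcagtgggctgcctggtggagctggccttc
Hdac5-219, start of its intron: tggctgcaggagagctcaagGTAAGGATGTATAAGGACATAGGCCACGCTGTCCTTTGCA
Hdac5-210, end of its intron part: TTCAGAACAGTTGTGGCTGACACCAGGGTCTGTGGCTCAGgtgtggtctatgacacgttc

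In Hdac7 the coding transcript Hdac7-207 leaves out 3 exons of Hdac7-204, of 111, 56 and 88 bases. The junction over the last 2 of them, at chr15:97799761-97799816 and chr15:97799557-97799644, tells the transcripts apart, and capitals mark exon bases found in Hdac7-204 only.
Hdac7-204, junction: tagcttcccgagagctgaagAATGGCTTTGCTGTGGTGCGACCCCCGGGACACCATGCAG
Hdac7-207, junction: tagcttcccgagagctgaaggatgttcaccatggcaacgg

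The gene sums ran from about 1 to about 20 FPKM. Hdac11 was the highest with a mean of 20.5 FPKM over the 16 mice, followed by Hdac2 (16.1), Hdac3 (11.9), Hdac5 (8.14), Hdac4 (7.94), Hdac1 (6.41), Hdac9 (5.98), Hdac7 (3.59) and Hdac10 (1.07). FPKM is per length, so these levels can be set side by side for the transcripts that carry the gene names. Assembled transcripts without a gene name are left out of the sums. They held 31.7% of the FPKM at Hdac5, 26.5% at Hdac4 and 24.5% at Hdac10, but 0% at Hdac1, Hdac2 and Hdac7, so the order could differ with them. The ranges of Hdac5 and Hdac4, of Hdac4 and Hdac1, and of Hdac1 and Hdac9 overlapped widely, and so did those of Hdac11 (17.4 to 24.6) and Hdac2 (13.2 to 22.4). Hdac10 did not overlap with any other gene, with 0.376 to 1.69 FPKM against at least 2.14 in Hdac7. Within groups the spread was smallest in Hdac11 (a CV of 10.3%) and Hdac9 (11.2%) and largest in Hdac4 (29.2%) and Hdac10 (28%).

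**Figure D2:**
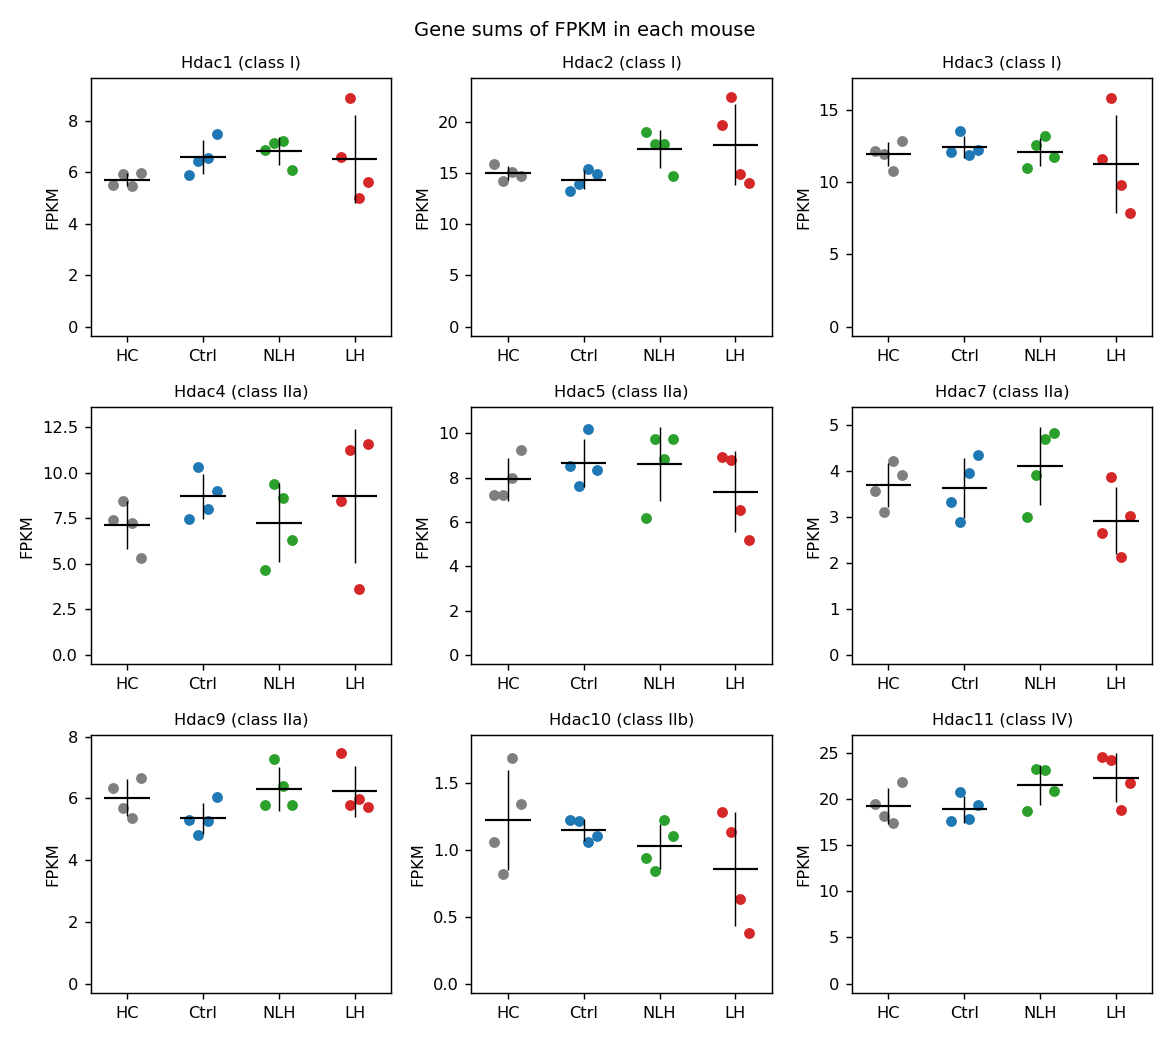
Gene sums of FPKM (y axis, 0 included) of the 9 HDAC genes in HC, Ctrl, NLH and LH mice; points are mice, and lines give the mean ± SD of 4. LH has the largest SD in 8 of the 9 genes, all but Hdac7, as in Hdac3 from 7.87 to 15.8 FPKM, and no gene separates any compared groups without overlap.

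No HDAC gene passed limma's adjusted threshold of 0.05 in Ctrl vs. HC, NLH vs. Ctrl, LH vs. Ctrl or LH vs. NLH. Over all 18287 gene names the same threshold was passed by 0%, 0.00547%, 0% and 0.0109%. At an unadjusted p under 0.05, limma counted 0, 0, 0 and 1 of the 9 HDAC genes, and 2.7%, 5.59%, 11.5% and 7.54% of all genes. These counts depended on the processing, most in LH vs. Ctrl. With median-ratio size factors it was 5 (Hdac2 and Hdac11 higher, Hdac3, Hdac5 and Hdac10 lower in LH), beside 16% of all genes. It was 2 with a mean of at least 1 FPKM (Hdac2 and Hdac11 higher, beside 13.8%), 2 with long coding transcripts only (Hdac2 higher and Hdac7 lower, beside 11.3%) and 1 with sums over the assembled locus (Hdac2 higher, beside 13.1%). It was 3 without LH replicate 2 (Hdac3, Hdac7 and Hdac10, all lower, beside 15.8%), but 2 without LH replicate 3 (Hdac2 and Hdac11, both higher, beside 12.2%) and 2 without LH replicates 3 and 4 together (the same genes and direction, beside 24.3%). In NLH vs. Ctrl it was 1 (Hdac2, higher) with size factors (beside 7.02%), with only the compared groups fitted (10.2%) and with long coding transcripts (6.13%), and in Ctrl vs. HC it was 1 (Hdac1, higher) with only the compared groups fitted (8.68%). In LH vs. NLH it ran from 0, as with only the compared groups fitted (beside 3.54%), to 2. It was 2 without LH replicate 2 (Hdac3 and Hdac7, both lower, beside 13.2%) and without NLH replicate 1 (Hdac5 and Hdac7, both lower, beside 8.31%). Without LH replicate 3 the 1 gene was Hdac4 (higher, beside 8.04%). Without LH replicates 3 and 4 the 1 gene was Hdac2 (higher, beside 15.3%) in place of Hdac7. Only Hdac2 in LH vs. Ctrl without LH replicates 3 and 4 passed the adjusted threshold. The study's own equal-variance test on FPKM, called the methods' test here, counted 0, 1, 0 and 0 HDAC genes at that unadjusted cutoff, with 8.5%, 9.58%, 8.03% and 3.5% of all genes tested. The groups did not separate without overlap in any of the 9 genes in these comparisons, where 5.24%, 6.04%, 5.59% and 2.11% of all genes did. With 4 mice against 4, differences of the size seen here could not be told from the spread between mice, and this does not show that levels were alike.

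The median log2 difference over the 9 genes was -0.12 in LH vs. Ctrl, -0.09 in LH vs. NLH, 0.05 in NLH vs. Ctrl and -0.03 in Ctrl vs. HC. The medians over all genes were 0, -0.06, 0.06 and 0.02 in the same order. In LH vs. Ctrl 3 of the 9 genes were higher in LH, against 48.2% of all genes. When LH replicates 3 and 4 were left out, an alternative added after the values were seen, 8 of 9 were higher in LH, and so were 73% of all genes, with a median log2 difference of 0.20 over all genes and 0.17 over the 9. In LH vs. NLH the count went from 3 to 8 of 9 in the same way, and the share of all genes from 38.9% to 69.2%. In NLH vs. Ctrl 5 of 9 were higher in NLH, beside 60.5% of all genes, and 4 of 9 with median-ratio size factors, beside 47.7%. Size factors also gave 4 of 9 in LH vs. NLH, beside 42.3%. Ctrl serves in 3 of the comparisons, so their values are not independent of each other.

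**Figure D3:**
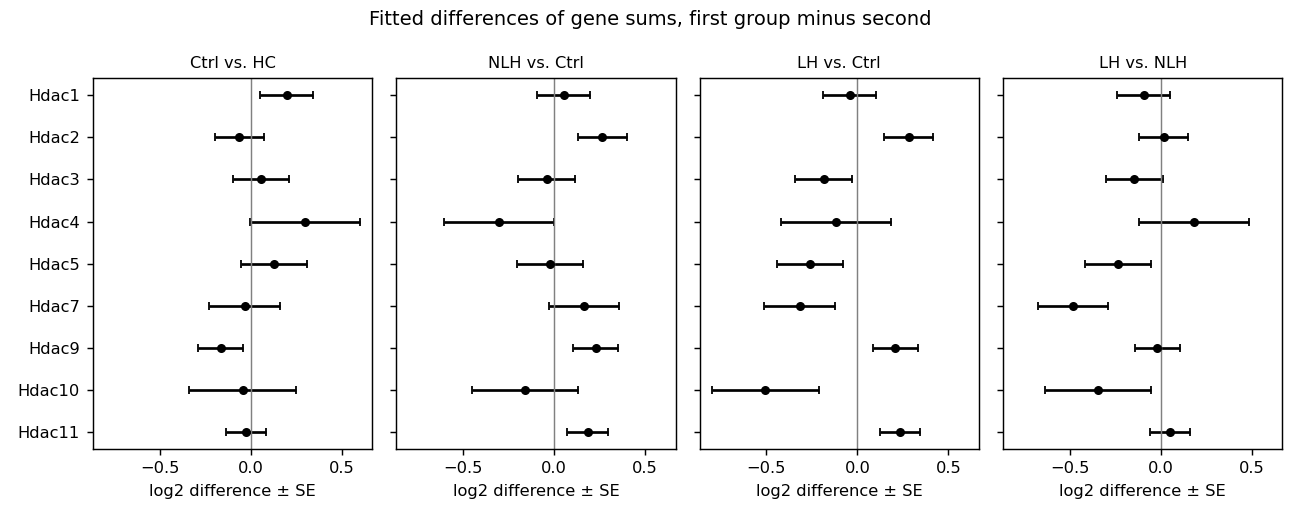
Fitted log2 differences of gene sums (x axis, first group minus second, ± SE of limma) for the 9 HDAC genes in the 4 comparisons. In 21 of the 36 differences the interval of 1 SE reaches 0, and Hdac10 has the lowest value in LH vs. Ctrl (-0.51) and Hdac7 in LH vs. NLH (-0.48).

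Hdac2 (chr10:36974544-37001889, plus strand) had higher means in both shocked groups than in Ctrl. Mice are given in the order of their numbers throughout, and its gene sums were 15.9, 14.2, 15.1 and 14.7 FPKM in HC mice, 13.2, 13.9, 15.4 and 14.9 in Ctrl mice, 19.0, 17.9, 17.8 and 14.7 in NLH mice and 19.7, 22.4, 14.9 and 14.0 in LH mice. The means were 14.4 ± 0.965 in Ctrl, 17.3 ± 1.84 in NLH and 17.8 ± 3.97 in LH (SD, n = 4). The upper 3 NLH mice and LH replicates 1 and 2 lay above every Ctrl mouse, while LH replicates 3 and 4 lay within the Ctrl range. The log2 difference was 0.27 (SE 0.13) in NLH vs. Ctrl (adjusted p = 0.917, limma) and 0.28 (SE 0.13) in LH vs. Ctrl (adjusted p = 0.435, limma). Without LH replicates 3 and 4 the latter became 0.55 (adjusted p = 0.0221, limma), on 2 LH mice and with 5.42% of all genes past the adjusted threshold in that fit. Over all alternatives its adjusted p ranged from 0.0221 to 0.787. LH and NLH differed by 0.02 (SE 0.13, adjusted p = 1.00, limma).

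Hdac2-201, the transcript with the full coding sequence of 1464 bases over 14 exons, held 85.8% of the gene sum. Its levels were 13.7, 11.8, 12.9 and 12.5 FPKM in HC mice, 10.5, 12.2, 13.1 and 12.4 in Ctrl mice, 16.9, 15.8, 15.3 and 11.8 in NLH mice and 17.0, 18.6, 13.6 and 12.9 in LH mice. It was higher by a log2 difference of 0.35 (SE 0.13) in LH vs. Ctrl (unadjusted p = 0.0197, adjusted p = 0.383, limma; 0.56 without LH replicates 3 and 4) and of 0.30 (SE 0.13) in NLH vs. Ctrl (unadjusted p = 0.0416, adjusted p = 0.950, limma). The LH mice reached from 12.9 to 18.6 FPKM and 1 of them lay below the highest Ctrl mouse at 13.1. Its share of the gene sum lay between 79.7% and 92% in every mouse, and the rest was a shorter coding transcript and a retained-intron transcript, the latter at 0 in LH replicates 3 and 4.

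Hdac1 (chr4:129516104-129542713, minus strand), the close paralog of Hdac2 with which it shares complexes, had gene sums of 5.50, 5.92, 5.47 and 5.95 FPKM in HC mice, 5.88, 6.43, 6.53 and 7.49 in Ctrl mice, 6.85, 7.15, 7.22 and 6.07 in NLH mice and 6.57, 8.88, 5.00 and 5.63 in LH mice. LH replicate 2 was the highest of all mice and LH replicate 3 the lowest. The largest log2 difference was 0.20 (SE 0.15) in Ctrl vs. HC (unadjusted p = 0.195, adjusted p = 1.00, limma), with an unadjusted p of 0.0425 and an adjusted p of 0.563 when limma was fitted to these groups only. Processed copies of Hdac1 are known in the mouse genome, so some of its reads may belong to them. Hdac1-201, the only coding transcript here, held 66.2% of the gene sum, and 5 retained-intron transcripts held 33.8%, among them Hdac1-202 with 11.9%.

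Hdac1-204, a retained-intron transcript of 754 bases at the 5′ end of the gene, was at 0.341, 0.243, 0.362 and 0.199 FPKM in HC mice, 0.241, 0.783, 0.395 and 1.07 in Ctrl mice, 1.01, 0.825, 0.593 and 0.714 in NLH mice and 0.312, 0.975, 0 and 0 in LH mice. All 4 NLH mice were above 0.59 FPKM, and the LH mice were split between 0 and 0.975. The log2 difference in LH vs. NLH was -1.76 (SE 0.64, unadjusted p = 0.0153, adjusted p = 0.465, limma), and -0.39 without LH replicates 3 and 4.

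Hdac3 (chr18:37935844-37955016, minus strand), the catalytic subunit of the NCoR complex, was at 12.2, 11.9, 10.8 and 12.8 FPKM in HC mice, 12.1, 13.5, 11.8 and 12.2 in Ctrl mice, 10.9, 12.5, 13.1 and 11.7 in NLH mice and 11.6, 15.8, 9.76 and 7.87 in LH mice. The HC, Ctrl and NLH mice lay between 10.8 and 13.5 FPKM, with LH replicate 1 among them, LH replicate 2 above them and LH replicates 3 and 4 below them. The log2 difference in LH vs. Ctrl was -0.19 (SE 0.16, adjusted p = 0.685, limma), and it was 0.12 without LH replicates 3 and 4. Its coding transcript of 15 exons, Hdac3-201, held 82.1% and the retained-intron transcript Hdac3-203 held 15.1% of the sum. Hdac3-203 was at 0.533 FPKM in LH replicate 3 and at 1.42 to 2.4 FPKM in the other mice.

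The class I genes summed to 32.6 ± 1.08 FPKM in HC mice, 33.3 ± 1.5 in Ctrl mice, 36.2 ± 2.58 in NLH mice and 35.5 ± 8.88 in LH mice (SD, n = 4). The LH mice spanned the whole range of this sum, from 27.5 to 47.1 FPKM.

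The members differed in how much of their sum was assigned to transcripts that could encode the enzyme. Of the 69 transcripts 31 are annotated as protein coding, 27 as retained introns, 9 as processed transcripts and 2 as targets of nonsense-mediated decay. Long coding transcripts, those with a coding sequence of at least 80% of the longest of the gene, held 86.8% of the sum in Hdac11, 85.8% in Hdac2, 82.1% in Hdac3, 66.2% in Hdac1 and 56.1% in Hdac5. They held only 18.8% in Hdac9, 18.4% in Hdac7, 18.4% in Hdac10 and 18.3% in Hdac4. In these last genes most of the sum was assigned to short coding or non-coding transcripts. Reads of a full-length message can be given to shorter transcripts that overlap it. These shares therefore describe the estimate and do not show how much full-length message was present. A further 20 assembled transcripts without a gene name lie at these loci and hold 10.7% of the FPKM there, from 0% at Hdac1, Hdac2 and Hdac7 to 31.7% at Hdac5, and they are not in the sums.

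**Figure D4:**
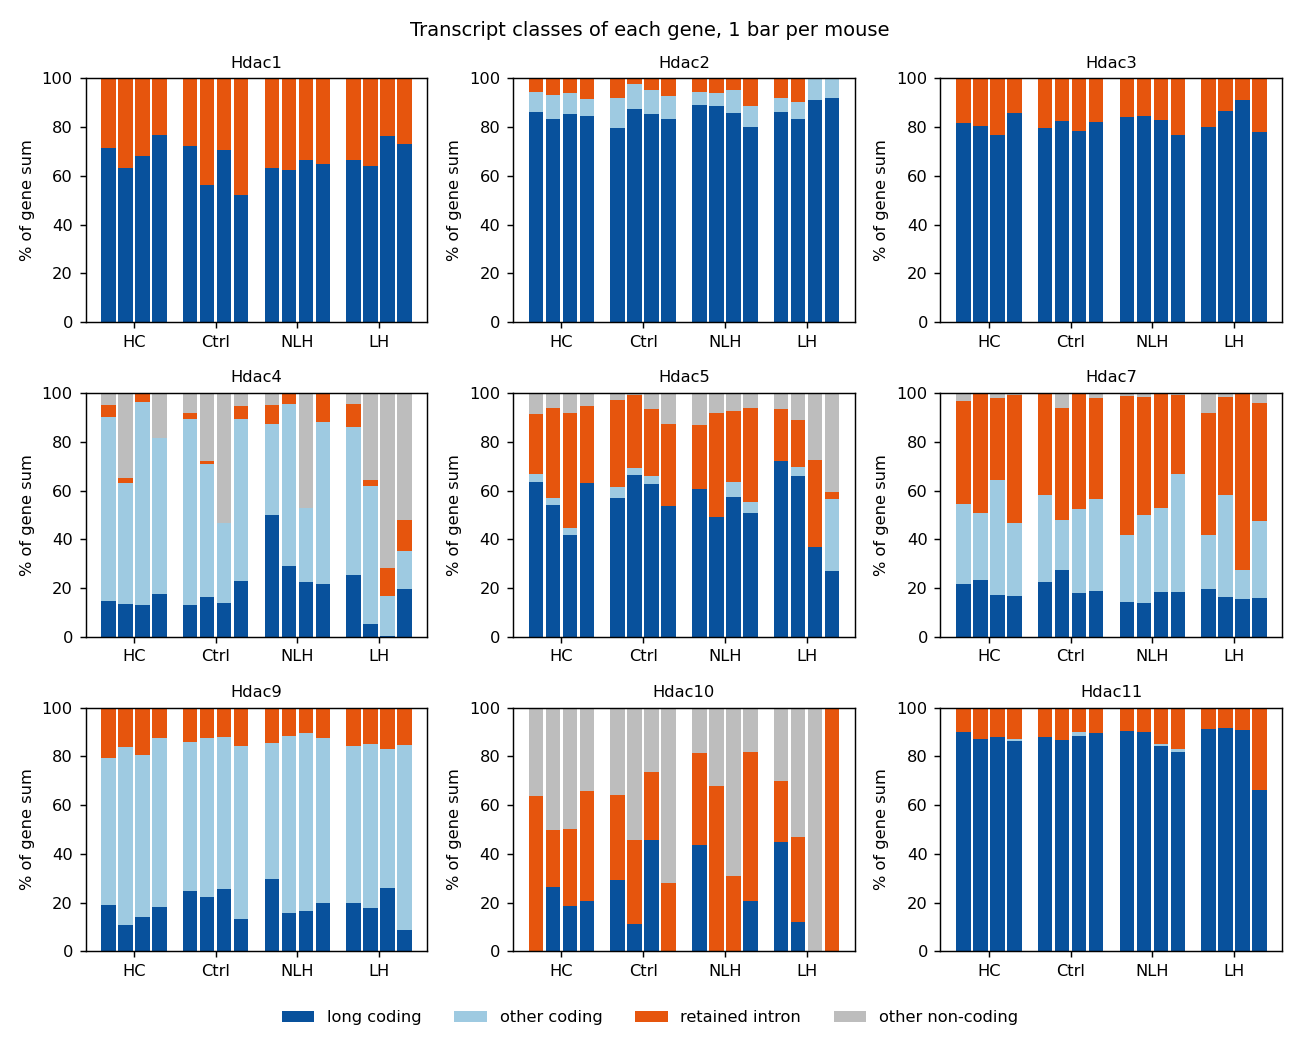
Percent of each gene sum (y axis, 0 to 100) in long coding, other coding, retained-intron and other non-coding transcripts, 1 stacked bar for each of the 16 mice grouped as HC, Ctrl, NLH and LH. Hdac2, Hdac3 and Hdac11 are mostly long coding, Hdac9 is mostly other coding, and Hdac10 varies from mouse to mouse, with 0% to 45.8% long coding.

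Hdac4 (chr1:91928779-92195699, minus strand), a repressor of MEF2 targets, was at 7.42, 8.46, 7.26 and 5.30 FPKM in HC mice, 7.48, 10.3, 8.03 and 8.99 in Ctrl mice, 4.65, 9.39, 8.62 and 6.33 in NLH mice and 8.43, 11.2, 3.61 and 11.6 in LH mice. LH replicate 3 was the lowest and LH replicate 4 the highest of all 16 mice, and the log2 difference in LH vs. Ctrl was -0.12 (SE 0.30, adjusted p = 0.920, limma). The sum was led by Hdac4-205, a coding transcript of 849 bases with a coding sequence of 336 bases (48.7%), and by the non-coding Hdac4-211 (20.3%), whereas the full-length Hdac4-202 with 27 exons and 3228 coding bases held 13.3%. Hdac4-205 and Hdac4-211 lie over the same 5′ part of the gene. Hdac4-205 was at 3.38 to 5.71 FPKM in HC and at 0.601 and 0 FPKM in LH replicates 3 and 4, while Hdac4-211 was at 2.6 and 6.02 FPKM in these mice and at 0 in 7 of the others.

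The second transcript with the full coding length, Hdac4-201, was at 0, 0, 0 and 0.0622 FPKM in HC mice, 0, 0.872, 0.176 and 0.742 in Ctrl mice, 0.530, 1.30, 0.270 and 1.25 in NLH mice and 0.566, 0.576, 0 and 0 in LH mice. It was near 0 in HC and in LH replicates 3 and 4 and at 0.27 FPKM or more in every NLH mouse. Its level had a log2 difference of 1.78 (SE 0.81) in Ctrl vs. HC (unadjusted p = 0.0437, adjusted p = 1.00, limma). As a share of the gene sum it differed by 7.29 percentage points (SE 3.06) in NLH vs. Ctrl (adjusted p = 0.880, limma) and by -9.06 percentage points (SE 3.06) in LH vs. NLH (adjusted p = 0.479, limma). Hdac4-210, a retained-intron fragment of 589 bases at the 3′ end, was at 0.367, 0.176, 0.272 and 0 FPKM in HC mice, 0.175, 0.121, 0 and 0.472 in Ctrl mice, 0.352, 0.406, 0 and 0.744 in NLH mice and 0.812, 0.258, 0.405 and 1.49 in LH mice, with a log2 difference of 1.56 (SE 0.73) in LH vs. Ctrl (adjusted p = 0.465, limma). When LH replicates 3 and 4 were left out, the Hdac4-210 difference was 1.24 (unadjusted p = 0.192, limma) and the Hdac4-201 share differed by -6.10 percentage points in LH vs. NLH (unadjusted p = 0.129, limma).

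Hdac5 (chr11:102194432-102230166, minus strand), a class IIa enzyme that neuronal activity moves out of the nucleus, was at 7.22, 7.23, 7.97 and 9.26 FPKM in HC mice, 8.52, 7.63, 10.2 and 8.34 in Ctrl mice, 6.17, 9.72, 8.86 and 9.72 in NLH mice and 8.94, 8.79, 6.55 and 5.18 in LH mice. LH replicates 3 and 4 were among the lowest mice, and LH replicates 1 and 2 lay within the Ctrl range. The log2 difference in LH vs. Ctrl was -0.26 (SE 0.18, adjusted p = 0.624, limma), and 0.04 without LH replicates 3 and 4. Its full-length transcripts Hdac5-204 and Hdac5-202 held 37.6% and 18.3%. Hdac5-204 was at 2.09 to 4.97 FPKM in HC, 3.23 to 4.58 in Ctrl and 2.04 to 3.47 in NLH, and at 4.98, 3.11, 1.62 and 0.24 FPKM in the LH mice.

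The overlapping retained-intron transcripts of Hdac5 were low in all LH mice. Hdac5-210 was at 0.660, 0.672, 0.445 and 0.689 FPKM in HC mice, 1.34, 0.618, 1.34 and 0.432 in Ctrl mice, 0.219, 1.71, 0.701 and 1.00 in NLH mice and 0.231, 0.118, 0.248 and 0 in LH mice. Hdac5-219 was at 0.222, 0.0696, 0.0766 and 0.144 FPKM in HC mice, 0.336, 0.186, 0.431 and 0.135 in Ctrl mice, 0.268, 0.228, 0.146 and 0.374 in NLH mice and 0, 0.102, 0 and 0 in LH mice. In both, every LH mouse lay below every Ctrl mouse, and in Hdac5-219 also below every NLH mouse. In LH vs. Ctrl the log2 differences were -2.07 (SE 0.53) for Hdac5-210 (unadjusted p = 0.00134, adjusted p = 0.174, limma) and -1.57 (SE 0.38) for Hdac5-219 (unadjusted p = 0.00101, adjusted p = 0.161, limma).

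LH vs. NLH gave -1.92 (SE 0.53) for Hdac5-210 (adjusted p = 0.318, limma) and -1.53 (SE 0.38) for Hdac5-219 (adjusted p = 0.262, limma). As shares of the Hdac5 sum they averaged 10.5% in Ctrl, 9.84% in NLH and 1.93% in LH for Hdac5-210 and 3.06%, 3.05% and 0.29% for Hdac5-219, with adjusted p of 0.378 and 0.356 in LH vs. Ctrl (limma). Leaving out LH replicates 3 and 4 gave log2 differences of -1.81 for Hdac5-210 and -1.31 for Hdac5-219 in LH vs. Ctrl. Both had an unadjusted p under 0.05 (adjusted p = 0.174 and 0.210, limma), and so did 14.3% of all transcripts in that fit. The transcripts share exon bases, so these are not independent observations. The longer retained-intron transcript Hdac5-216 with 16 exons was at 0.289 to 0.543 FPKM in Ctrl and 0.105 to 0.269 in LH, a log2 difference of -0.79 (SE 0.32, adjusted p = 0.408, limma), and of -0.53 without LH replicates 3 and 4 (unadjusted p = 0.162, limma).

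Hdac7 (chr15:97792664-97844502, minus strand), best known from thymocytes and endothelium, was at 3.56, 3.10, 4.21 and 3.92 FPKM in HC mice, 3.33, 2.89, 3.96 and 4.36 in Ctrl mice, 3.00, 3.91, 4.70 and 4.82 in NLH mice and 2.66, 3.88, 2.14 and 3.01 in LH mice. The log2 difference in LH vs. NLH was -0.48 (SE 0.19), the only gene sum at an unadjusted p under 0.05 (p = 0.0241, adjusted p = 0.595, limma), and the exact permutation test gave p = 0.0857. The groups overlapped, with NLH replicate 1 at 3 FPKM and LH replicate 2 at 3.88. Over the alternatives the adjusted p ranged from 0.222 to 1. In limma the unadjusted p of Hdac7 missed the threshold when LH replicate 1, LH replicate 3, NLH replicate 3 or NLH replicate 4 was left out, with values of 0.0529, 0.0916, 0.0704 and 0.0759 in that order. It missed it in limma with only the compared groups fitted (0.0615) and over long coding transcripts (0.113), and with the methods' test on FPKM. Without LH replicates 3 and 4 together the log2 difference was -0.32 (unadjusted p = 0.161, limma). The endothelial markers were at 13 to 17 FPKM in NLH and 13.8 to 22 in LH, and their part in the Hdac7 values was not tested. Hdac7 overlaps Slc48a1 on the other strand, and the strand of reads is not stated in the sources used here, so some of its reads may come from that gene.

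Most of the Hdac7 sum came from short fragments, the retained-intron transcript Hdac7-211 (45.6%) at the 3′ end and the incomplete coding Hdac7-209 of 770 bases (34.2%). Hdac7-211 was at 1.56 to 2.21 FPKM in NLH and 1.33 to 1.555 in LH, without overlap but with unadjusted p = 0.0877. The 7 long coding transcripts together gave 0.71 to 0.811 FPKM in Ctrl and 0.331 to 0.633 in LH, a log2 difference of -0.57 in the fit over long coding transcripts (unadjusted p = 0.0209, adjusted p = 0.34, limma). Among them Hdac7-204 was at 0, 0.476, 0 and 0.306 FPKM in HC mice, 0.403, 0.388, 0.618 and 0.611 in Ctrl mice, 0, 0.528, 0.537 and 0.680 in NLH mice and 0.520, 0, 0 and 0 in LH mice, which was -1.91 (SE 0.79) on the log2 scale in LH vs. Ctrl (adjusted p = 0.409, limma). The Hdac7-204 difference was -1.26 without LH replicates 3 and 4 (unadjusted p = 0.221, limma). Hdac7-207, the exon-skipping form, was at 0.331 and 0.48 FPKM in LH replicates 3 and 4 and at 0 in all 14 other mice. It differed by 1.16 (SE 0.46) against both Ctrl and NLH, and not at all without these mice.

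Hdac9 (chr12:34047580-34917095, minus strand) was at 6.35, 5.68, 5.38 and 6.68 FPKM in HC mice, 5.31, 4.82, 5.28 and 6.04 in Ctrl mice, 5.78, 7.28, 6.40 and 5.78 in NLH mice and 7.46, 5.77, 5.97 and 5.72 in LH mice. The Ctrl mean was the lowest, at 5.36 ± 0.504, against 6.31 ± 0.709 in NLH and 6.23 ± 0.826 in LH (SD, n = 4). Neither NLH vs. Ctrl at a log2 difference of 0.23 (SE 0.12, adjusted p = 0.920, limma) nor LH vs. Ctrl at 0.21 (SE 0.12, adjusted p = 0.555, limma) passed the test.

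Hdac9-201, the truncated form shown above, was at 3.09, 3.37, 2.50 and 3.44 FPKM in HC mice, 2.99, 3.08, 2.46 and 2.82 in Ctrl mice, 2.91, 2.90, 2.86 and 2.57 in NLH mice and 4.60, 3.57, 3.39 and 2.94 in LH mice. All 4 LH mice lay above all 4 NLH mice, and LH replicate 4 lay below the highest Ctrl mouse. The log2 difference was 0.34 (SE 0.14) in LH vs. NLH (unadjusted p = 0.0307, adjusted p = 0.527, limma) and 0.33 (SE 0.14) in LH vs. Ctrl (unadjusted p = 0.0351, adjusted p = 0.429, limma). Without LH replicate 1, the highest mouse, the Hdac9-201 difference was 0.22 in LH vs. NLH (unadjusted p = 0.117, limma) and 0.21 in LH vs. Ctrl (unadjusted p = 0.133, limma). Without LH replicates 3 and 4 it was 0.52 (unadjusted p = 0.00406, adjusted p = 0.262, limma) and 0.51 (unadjusted p = 0.00460, adjusted p = 0.132, limma) in that order. In that fit 11.1% and 14.3% of all transcripts had an unadjusted p under 0.05. As a share of the Hdac9 sum it was 50.4, 39.9, 44.7 and 44.4% in NLH and 61.7, 61.9, 56.8 and 51.5% in LH, a difference of 13.1 percentage points (SE 4.53, adjusted p = 0.498, limma). Without LH replicates 3 and 4 the share difference was 16.9 percentage points (adjusted p = 0.564, limma).

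Hdac9-203 ends with the same truncated coding sequence but leaves out an exon of 132 bases at chr12:34407766-34407897. It was at 0.532, 0.618, 1.08 and 0.574 FPKM in HC mice, 0.169, 0, 0.522 and 0.830 in Ctrl mice, 0.207, 0.884, 0.444 and 0.911 in NLH mice and 0.137, 0.0773, 0 and 0 in LH mice, so all LH mice lay below all NLH mice. The log2 difference in LH vs. NLH was -2.15 (SE 0.61, unadjusted p = 0.00311, adjusted p = 0.340, limma), and its share differed by -8.81 percentage points (SE 3.46, adjusted p = 0.550, limma). With LH replicates 3 and 4, both at 0, left out, Hdac9-203 differed by -1.64 in LH vs. NLH (unadjusted p = 0.0470, limma) and its share by -8.02 percentage points (unadjusted p = 0.103, limma). In LH vs. Ctrl its log2 difference was -1.31 (unadjusted p = 0.0486, adjusted p = 0.464, limma), with an unadjusted p of 0.0670 under the replicate block and a difference of -0.80 without LH replicates 3 and 4 (unadjusted p = 0.303, limma). Hdac9-201 and Hdac9-203 lay on opposite sides in LH vs. NLH, and neither passed the adjusted threshold. Hdac9-208, which has the exon and the same truncated end but a start further downstream, was at 0, 1.16, 0.450 and 0.230 FPKM in NLH mice and 0.05, 0.122, 0 and 0.891 in LH mice. Its log2 difference was -0.70 (SE 0.81, adjusted p = 0.794, limma). The long form Hdac9-205, with 12.2% of the sum, was at 0.501 to 0.964 FPKM in LH and 0.597 to 0.908 in NLH. The retained-intron transcript Hdac9-209 (14.7%) had a log2 difference of -0.43 (SE 0.19) in Ctrl vs. HC (adjusted p = 1.00, limma).

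Hdac10 (chr15:89123307-89128700, minus strand) was the lowest member, at 1.06, 0.821, 1.69 and 1.34 FPKM in HC mice, 1.23, 1.22, 1.06 and 1.10 in Ctrl mice, 0.938, 0.845, 1.23 and 1.11 in NLH mice and 1.29, 1.13, 0.636 and 0.376 in LH mice. LH replicates 3 and 4 were the lowest of all mice, and the log2 difference in LH vs. Ctrl was -0.51 (SE 0.29, adjusted p = 0.546, limma), or 0.07 without them. No transcript led it: the processed transcript Hdac10-208 held 27.5%, the coding Hdac10-201 18.4%, the retained-intron Hdac10-203 16.6%, the processed Hdac10-204 13% and the retained-intron Hdac10-207 12.2%. Each of these was at 0 in at least 2 mice.

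Hdac10-205, which keeps the 2 introns printed above, had the smallest unadjusted p among the HDAC transcripts. It was at 0, 0.190, 0 and 0.147 FPKM in HC mice, 0.265, 0.254, 0.296 and 0.245 in Ctrl mice, 0.0597, 0.0601, 0 and 0.123 in NLH mice and 0, 0, 0 and 0 in LH mice. The Ctrl mice lay above every mouse of the other 3 groups, and all LH mice were at 0. The log2 difference on log2(FPKM + 0.1) was -1.87 (SE 0.38) in LH vs. Ctrl (unadjusted p = 0.000183, adjusted p = 0.105, limma), -1.24 (SE 0.38) in NLH vs. Ctrl (adjusted p = 0.609, limma) and 1.16 (SE 0.38) in Ctrl vs. HC (adjusted p = 1.00, limma). The exact permutation test gave p = 0.0286 in all 3 comparisons, the smallest value that 4 mice against 4 can give. These comparisons share the 4 Ctrl mice. The methods' test on FPKM gave an adjusted p of 0.000226 in LH vs. Ctrl, and its adjusted p over all alternatives ranged from 0.000226 to 0.221.

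As a share of the Hdac10 sum, Hdac10-205 was 0, 23.1, 0 and 10.97% in HC, 21.7, 20.9, 27.8 and 22.3% in Ctrl and 6.37, 7.11, 0 and 11.1% in NLH, and 0% in LH. The difference in LH vs. Ctrl was -23.2 percentage points (SE 4.25, adjusted p = 0.149, limma). Hdac10-206, which shares the second intron, was at 0.214, 0.131, 0 and 0.130 FPKM in Ctrl and at 0 in all 12 other mice. Its log2 difference was 1.01 (SE 0.27) in Ctrl vs. HC and -1.01 (SE 0.27) in LH vs. Ctrl (adjusted p = 0.194, limma). Leaving out Ctrl replicate 3 takes away the only Ctrl mouse that goes against the difference, since it is the one at 0. In that fit Hdac10-206 passed the adjusted threshold in LH vs. Ctrl (log2 difference -1.35, adjusted p = 0.0267, limma) and NLH vs. Ctrl (-1.35, adjusted p = 0.0266), and its share did in both and in Ctrl vs. HC (adjusted p = 0.00312 in each). Of all transcripts 0.0288% passed in LH vs. Ctrl and 0.0138% in NLH vs. Ctrl in that fit, and of all shares 0.029%, 0.0201% and 0.0156% in LH vs. Ctrl, NLH vs. Ctrl and Ctrl vs. HC.

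**Figure D5:**
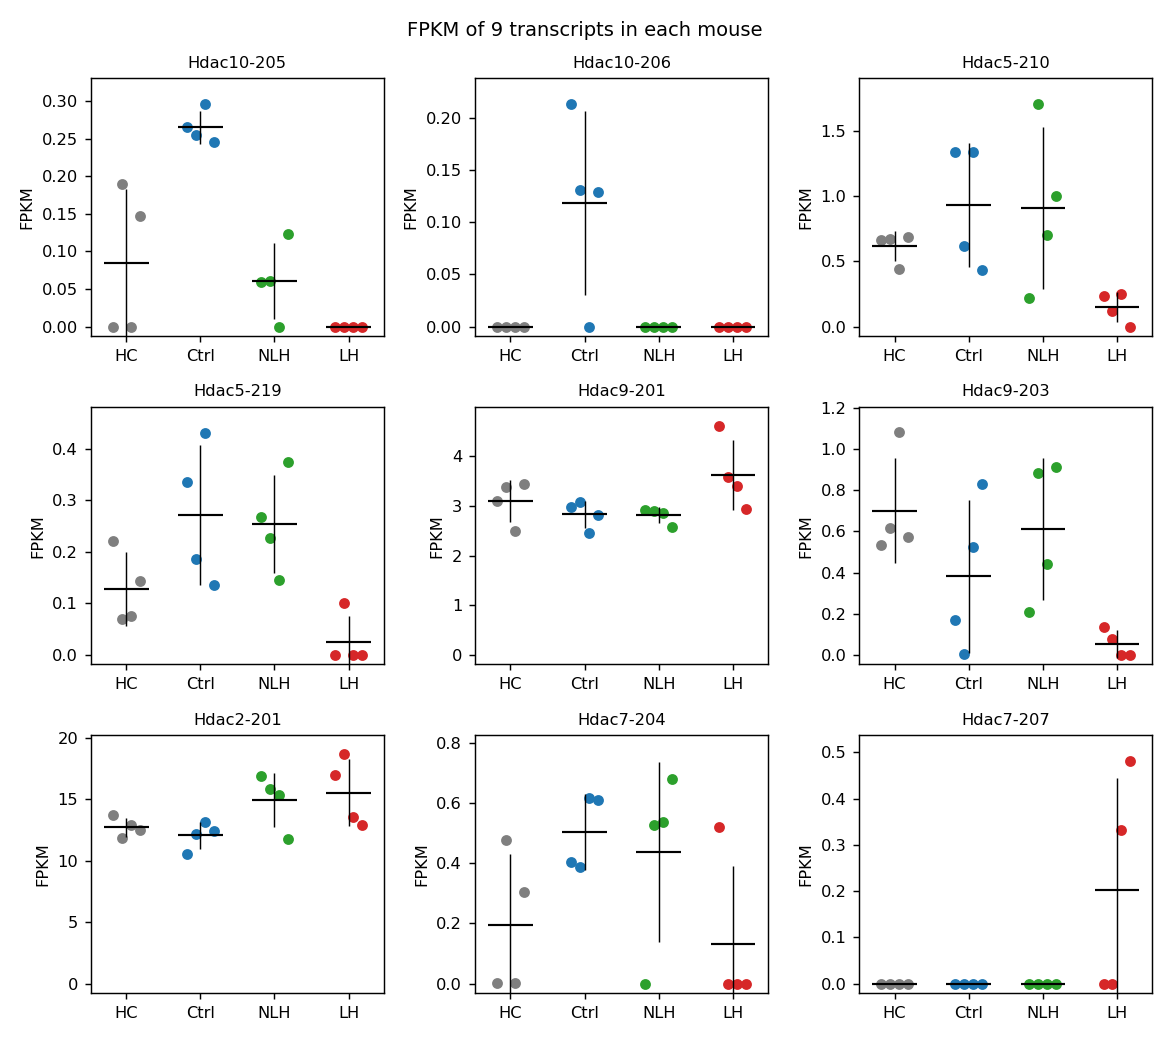
FPKM (y axis) of 9 HDAC transcripts in the 4 mice of HC, Ctrl, NLH and LH; points are mice, and lines give the mean ± SD. Hdac10-205 is between 0.245 and 0.296 FPKM in Ctrl and 0 in LH, both Hdac5 fragments are low in LH, and Hdac7-207 is above 0 in 2 LH mice only.

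Hdac11 (chr6:91156665-91174692, plus strand), a brain-rich enzyme that removes long fatty acyl groups, was the most abundant member, at 19.5, 18.2, 17.4 and 21.8 FPKM in HC mice, 17.6, 20.8, 17.8 and 19.3 in Ctrl mice, 18.7, 23.2, 23.2 and 20.9 in NLH mice and 24.6, 24.2, 18.8 and 21.7 in LH mice. The 2 shocked groups had the higher means, 21.5 ± 2.16 in NLH and 22.3 ± 2.68 in LH against 18.9 ± 1.47 in Ctrl (SD, n = 4). LH replicate 3 and NLH replicate 1 lay within the Ctrl range. The log2 difference was 0.24 (SE 0.11) in LH vs. Ctrl (adjusted p = 0.434, limma) and 0.18 (SE 0.11) in NLH vs. Ctrl (adjusted p = 0.970, limma). Without LH replicates 3 and 4 the former was 0.37 (adjusted p = 0.0635, limma), and over all alternatives its adjusted p ranged from 0.0635 to 0.744. The full-length Hdac11-201 held 86.8% of the sum and 66.1% to 91.5% in each mouse, with the lowest share in LH replicate 4. In that mouse Hdac11-201 was at 14.3 FPKM, the lowest of the 16 mice and below every Ctrl mouse, against 22.4, 22.1 and 17.1 FPKM in the other LH mice, while the retained-intron Hdac11-202 was at 5.33 FPKM against at most 1.43 in any other mouse. The log2 difference of Hdac11-201 alone was 0.17 (SE 0.13) in LH vs. Ctrl (adjusted p = 0.641, limma). Hdac11 overlaps Gm14573 on the other strand, and without a stated strand their reads cannot be told apart.

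Counted over all 69 transcripts, 0 passed limma's adjusted threshold in any of the 4 comparisons, where 0.00374% (Ctrl vs. HC), 0.0125% (NLH vs. Ctrl), 0.0462% (LH vs. Ctrl) and 0.0412% (LH vs. NLH) of all 80137 transcripts did. The methods' test with adjustment counted 0, 0, 1 and 0, the 1 being Hdac10-205, and 0.126%, 0.163%, 0.213% and 0.19% of all transcripts. At an unadjusted p under 0.05 limma counted 4, 3, 11 and 6 HDAC transcripts, or 5.8%, 4.35%, 15.9% and 8.7%, against 3.45%, 5.12%, 10.7% and 8.72% of all transcripts. The methods' test counted 6 (LH vs. Ctrl) and 3 (between LH and NLH) at that cutoff, against 7.82% and 4.64% of all transcripts, and with LH replicate 3 left out limma counted 6 in LH vs. Ctrl, against 10.5%. Groups were without overlap in 1, 1, 5 and 5 HDAC transcripts, against 4.48%, 5.02%, 5.85% and 3.18% of all transcripts. All 5 in LH vs. Ctrl were lower in LH, namely Hdac5-210, Hdac5-216, Hdac5-219, Hdac7-205 (by values under 0.01 FPKM only) and Hdac10-205, where 3.52% of all transcripts were lower in LH without overlap. Of the isoform shares, 0 passed the adjusted threshold in each comparison, against 0.00223%, 0.0178%, 0.0111% and 0.0223% of all 44904 shares, and 2, 3, 6 and 7 of 69 had an unadjusted p under 0.05, against 3.74%, 5.23%, 9.64% and 8.2%.

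Partners of the HDACs were read from 7 lists with 80 genes, of which 77 had rows. Limma's adjusted threshold was passed by 0 of them in each comparison. At an unadjusted p under 0.05 there were 3 genes in Ctrl vs. HC (3.9%, all higher in Ctrl), 7 in NLH vs. Ctrl (9.09%, all higher in NLH), 9 in LH vs. Ctrl (11.7%, of which LH was above Ctrl in 8) and 2 in LH vs. NLH (2.6%, both higher in LH). Over all genes the shares were 2.7%, 5.59%, 11.5% and 7.54%. In LH vs. Ctrl the genes at this cutoff were 2 of 14 in the SIN3 list, 0 of 10 in NuRD, 2 of 9 in CoREST, 0 of 4 in NCoR, 4 of 23 class IIa partners and kinases, 1 of 7 sirtuins and 0 of 10 acetyltransferases. In NLH vs. Ctrl the counts were 2, 1, 1, 1, 1, 0 and 1 in the same order. The median log2 differences of the lists ran from -0.09 (sirtuins) to 0.18 (CoREST) in LH vs. Ctrl, from 0.02 to 0.14 in NLH vs. Ctrl, from 0.03 to 0.09 in Ctrl vs. HC and from -0.21 to -0.03 in LH vs. NLH, beside 0, 0.06, 0.02 and -0.06 over all genes. LH vs. NLH had 1 gene each among the sirtuins and acetyltransferases.

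The smallest p in both shocked groups belonged to Ywhaz, which encodes a 14-3-3 protein of the kind that keeps phosphorylated class IIa HDACs in the cytoplasm. It was at 92.1 ± 14.8 FPKM in NLH and 54.4 ± 6.33 in Ctrl (SD, n = 4), a log2 difference of 0.75 (SE 0.14, adjusted p = 0.120, limma). The LH mice gave 80.8 ± 11.8 FPKM in LH and 54.4 ± 6.33 in Ctrl (SD, n = 4), a log2 difference of 0.57 (SE 0.14, adjusted p = 0.139, limma). Neither comparison had overlapping groups, and both share the Ctrl mice. Ncor1, the scaffold that activates Hdac3, was at 40.6 ± 4.62 FPKM in NLH and 28.7 ± 4.10 in Ctrl (SD, n = 4), a log2 difference of 0.50 (SE 0.14, adjusted p = 0.522, limma).

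Mef2c, a transcription factor that class IIa HDACs repress, was at 44.5 ± 9.49 FPKM in LH and 30.0 ± 1.64 in Ctrl (SD, n = 4), a log2 difference of 0.54 (SE 0.15, adjusted p = 0.172, limma). In Ctrl vs. HC, Mbd2, a methyl-DNA reader of NuRD, was at 6.25 ± 0.826 FPKM in Ctrl and 4.85 ± 0.439 in HC (SD, n = 4), a log2 difference of 0.35 (SE 0.15, adjusted p = 1.00, limma). In LH vs. NLH the first genes were the acetyltransferase Kat2b at 6.27 ± 4.42 FPKM in LH and 3.46 ± 0.895 in NLH (SD, n = 4), a log2 difference of 0.67 (SE 0.31, adjusted p = 0.653, limma), and the deacetylase Sirt1 at 4.16 ± 0.375 FPKM in LH and 3.41 ± 0.618 in NLH (SD, n = 4), a log2 difference of 0.29 (SE 0.14, adjusted p = 0.660, limma). None of these genes passed the adjusted threshold.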

How the data were processed

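The values are FPKM per transcript and mouse that the authors deposited for 16 hippocampus libraries. By the methods, HISAT2 aligned the reads to mm10, String Tie built and merged the transcripts, and Cufflinks gave their levels. The submitters' processing notes name STAR 2.42a, StringTie 1.2.3 and Cufflinks, so the aligner is uncertain. The table holds 80137 transcripts, and the deposited FPKM were not scaled further. Here, FPKM was summed over gene names, and isoform shares were taken as percent of the gene sum, for genes with at least 2 transcripts and a mean sum of at least 1 FPKM. Transcript annotation came from GENCODE vM21, which matched 99.42% of 61220 Ensembl transcripts without version numbers.

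Limma 3.58.1 (R 4.3.3, trend and robust) was fitted to log2(FPKM + 0.1), or to shares, of all 16 mice with 4 group means, with Benjamini-Hochberg adjustment over all genes, transcripts or shares. A fold on this scale understates the change of low values. The study's methods compared the libraries by Student's t-test at an unadjusted cutoff of 0.05. It was run here on FPKM with equal variances and two-sided, is called the methods' test, and was kept as an alternative. Exact permutation tests were two-sided. Fits were tested on simulated data. The labels do not say more of the mice than that they were separate animals. Depth was estimated from loci with 1 transcript longer than 2000 bases, where 61.5% to 69.5% of low values lay within 0.1 of a whole fragment.

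The members, gene lists, markers and rule for naming were chosen with earlier results of these data known. The rule named all members, their transcripts with at least 10% of the gene sum or an unadjusted limma p under 0.05 on level or share, and, over all the other lists as 1, the 2 genes with the smallest p in each comparison. A gene that this rule names is not reported here. Hdac7-205 was named after its values were seen. Alternatives were 0.01 or 1 added, median-ratio size factors, only features with a mean of 1 FPKM or more, a replicate block, only the groups compared, the methods' test, a gene sum of at least 5 FPKM and an arcsine scale for shares, and each mouse left out. Sums over the assembled locus or over long coding transcripts, and leaving out LH replicates 3 and 4 together, were added after the values were seen. Python 3.11.15 with numpy 2.4.6, pandas 2.3.3, scipy 1.17.1 and matplotlib 3.10.9 was used.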

Additional observations from a re-analysis of the deposited data

Results flagged for a closer look

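In 12 of 157 groups of 4 mice tested (7.64%), 1 mouse stood apart from the other 3 by Dixon's criterion for 4 values. In 5 of them the other 3 mice were all at 0, so that any value above 0 meets the criterion, and the rate of about 1 in 20 that chance gives does not apply to these. In the other 7 the other mice were above 0. The only gene sum among them was Hdac9 in LH replicate 1, at 7.46 FPKM against 5.72 to 5.97 in the other LH mice. The other 11 were transcripts.

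In HC, Hdac5-210 was at 0.445 FPKM in replicate 3 against 0.66 to 0.689, Hdac9-203 at 1.08 in replicate 3 against 0.532 to 0.618, Hdac7-211 at 2.06 in replicate 4 against 1.42 to 1.53, and Hdac4-201 at 0.0622 in replicate 4 with the others at 0. In NLH, Hdac9-201 was at 2.57 FPKM in replicate 4 against 2.86 to 2.91, Hdac10-208 at 0.519 in replicate 3 against 0.148 to 0.203, and Hdac4-211 at 3.23 in replicate 3 with the others at 0. In LH, Hdac3-203 was at 0.533 FPKM in replicate 3 against 1.73 to 1.88, while Hdac5-219 in replicate 2 (0.102), Hdac10-203 in replicate 4 (0.376) and Hdac7-204 in replicate 1 (0.52) were above 0 where the other LH mice were at 0.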

How the results depend on the processing

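No member gene and no member transcript or share passed limma's adjusted threshold in the analysis as described, and that held under every alternative with these exceptions. Without LH replicates 3 and 4 the count of HDAC genes in LH vs. Ctrl was 1 (Hdac2). The methods' test gave 1 HDAC transcript in LH vs. Ctrl (Hdac10-205). With 1 mouse left out, the counts ran from 0 to 1 for transcripts in NLH vs. Ctrl and LH vs. Ctrl and from 0 to 1 for shares in Ctrl vs. HC, NLH vs. Ctrl and LH vs. Ctrl, and each 1 was Hdac10-206 without Ctrl replicate 3. At an unadjusted p, size factors raised the HDAC genes in LH vs. Ctrl from 0 to 5 (Hdac2 and Hdac11 higher, Hdac3, Hdac5 and Hdac10 lower in LH), beside 16% of all genes, and they moved the median log2 difference over all genes by -0.06 (NLH vs. Ctrl) to 0.02 (LH vs. NLH).

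The counts at an unadjusted p moved by over 1.5 times under these settings. The percent of all transcripts or shares called in the same fit is given only where stated. The counts without it show how far the processing matters and are not results about the HDACs. With a mean of at least 1 FPKM, 0, 1, 2 and 1 of the 15 HDAC transcripts left were counted in Ctrl vs. HC, NLH vs. Ctrl, LH vs. Ctrl and between LH and NLH. With only the compared groups fitted, 3 transcripts were counted in LH vs. NLH and 5 shares in NLH vs. Ctrl. A gene sum of at least 5 FPKM left 0 shares in Ctrl vs. HC. Without LH replicates 3 and 4, 4 shares were counted in LH vs. NLH, beside 7.21% of all shares. With 1 mouse left out, the transcripts counted were 2 in Ctrl vs. HC without Ctrl replicate 2 or HC replicate 3, 7 in LH vs. Ctrl without Ctrl replicate 3, and 12, 10 and 11 in LH vs. NLH without LH replicate 1, LH replicate 2 and NLH replicate 1. Leaving out these last mice also moved the share of all genes in LH vs. NLH, from 7.54% to 10.9%, 13.2% and 8.31% in that order. The shares counted were 4 in Ctrl vs. HC without Ctrl replicate 4 or HC replicate 4, and 6 in NLH vs. Ctrl without NLH replicate 3. HDAC genes counted with 1 mouse left out ran from 0 to 0, 0 to 1, 0 to 3 and 0 to 2 in the comparisons as ordered above. The shares of all genes ran from 2.06% to 2.62%, 3.94% to 7.25%, 8.65% to 17% and 5.68% to 13.2% in these fits.

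Signs turned in 49 of 630 recomputed gene differences, none past the adjusted threshold. Transcript and share differences were recomputed only where the main fit gave an unadjusted p under 0.05. None of those turned, but differences picked for their size seldom do, so this is no contrast with the genes. Without LH replicates 3 and 4 the LH vs. Ctrl differences were 0.22 for Hdac1, 0.12 for Hdac3, 0.17 for Hdac4, 0.039 for Hdac5 and 0.066 for Hdac10, and in LH vs. NLH 0.16 for Hdac1, 0.16 for Hdac3, 0.063 for Hdac5, 0.062 for Hdac9 and 0.23 for Hdac10. Long coding transcripts alone turned Hdac7 (0.082), Hdac9 (0.25) and Hdac10 (0.090) in Ctrl vs. HC, Hdac4 (0.51) and Hdac7 (-0.20) in NLH vs. Ctrl, Hdac1 (0.12) and Hdac9 (-0.065) in LH vs. Ctrl, and Hdac1 (0.022) and Hdac4 (-1.43) in LH vs. NLH. Sums over the assembled locus turned Hdac10 in Ctrl vs. HC (0.034) and Hdac9 in LH vs. NLH (0.0031). Size factors turned Hdac1 in NLH vs. Ctrl (-0.029) and Hdac9 in LH vs. NLH (0.0073), and the methods' test turned Hdac4 in LH vs. Ctrl (0.016 FPKM).

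With 1 mouse left out, differences crossed 0 in Ctrl vs. HC for Hdac7 (-0.12 to 0.068), Hdac10 (-0.21 to 0.11) and Hdac11 (-0.072 to 0.036), in NLH vs. Ctrl for Hdac3 (-0.082 to 0.0056) and Hdac5 (-0.089 to 0.13), and in LH vs. Ctrl for Hdac1 (-0.20 to 0.072) and Hdac4 (-0.30 to 0.25). In LH vs. NLH they did so for Hdac1 (-0.25 to 0.020), Hdac2 (-0.10 to 0.12), Hdac3 (-0.32 to 0.0094), Hdac4 (-0.011 to 0.55), Hdac9 (-0.11 to 0.050) and Hdac11 (-0.015 to 0.13). The causes were not tested.

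Mice share only numbers across groups. Deviations of same-numbered mice correlated with a median r of -0.023 over 24 pairs (3 above 0.1), so no strong pairing by number was seen. This does not show that same-numbered mice shared no cage or library batch. The replicate block left 0 HDAC genes, 0 transcripts and 0 shares past the adjusted threshold in each comparison. FPKM holds no counts, so what depth limits for a single transcript was not determined.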

Other observations

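The 20 assembled transcripts without a gene name at the HDAC loci held 31.7% of the FPKM at Hdac5, 26.5% at Hdac4, 24.5% at Hdac10, 10% at Hdac9, 9.49% at Hdac3 and 4.11% at Hdac11. In none of the 20 did all NLH mice or all LH mice lie above every HC and Ctrl mouse. The sum of the 2 full-length Hdac4 transcripts varied more in LH than in other groups, at 1.10, 1.14, 0.937 and 0.926 FPKM in HC and 2.14, 0.599, 0 and 2.27 FPKM in LH. LH replicate 3 was below 0.01 FPKM in it while its whole Hdac4 sum was 3.61 FPKM.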
